A study of Mus musculus with 9 samples.

Results

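In 1095 of 11800 tested genes (9.28%), the level in all 6 libraries transfected with an siRNA against Usp40 lay on 1 side of all 3 control libraries. They are called shared here because both siRNAs put them on the same side of the controls. The word does not mean an equal change, and in some of them 1 siRNA changed little. The genes were chosen by their CPM, the deposited total count scaled to a library size adjusted by the trimmed mean of M values (TMM). A gene was taken when its CPM was above, or below, every control library in each of the 3 libraries of siRNA 1 and each of the 3 libraries of siRNA 2. Of the 11800 tested genes, 547 lay above all controls (4.64%) and 548 lay below them (4.64%). In the whole table of 25655 genes the rule took 1159, of which 577 lay above and 582 below, and 30 and 34 of these had too few counts to be tested. Because the siRNA and control values chose the genes, those values are given as a description without a test. The only tested quantity was the difference between the siRNAs, which uses the same libraries but which the rule did not look at.

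USP40 belongs to the ubiquitin-specific proteases, enzymes that take ubiquitin off other proteins and so counter the ligases that attach it. Ubiquitin chains mark many proteins for the proteasome, and others alter a protein's partners or location. Podocytes are the epithelial cells that wrap the capillaries of the kidney filter with actin-rich foot processes, and the slit diaphragm between those processes holds back plasma protein.

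RNA was sequenced from wild-type immortalized mouse podocytes, a conditionally growing line whose tissue is labelled kidney, in 3 groups of 3 libraries. The first group received Usp40 siRNA 1 (s105625), the second Usp40 siRNA 2 (s105626) and the third a negative control siRNA, all with Lipofectamine RNAiMAX, and RNA was taken 48 h later. Cells of all groups had been grown at 33 °C with interferon-γ and then kept at 37 °C without it for 10 to 14 days. The titles call the replicates biological, and a p-value covers the spread among these libraries. Libraries held 9786270 to 13675426 counts. Of the defining podocyte genes, the slit diaphragm gene Nphs1 had 2 counts over all 9 libraries together, the transcription factor gene Wt1 had 40 and Lmx1b 13, and no count was seen for Ptpro or Tcf21. Genes of the podocyte cytoskeleton and membrane were present, with mean levels over the 9 libraries of 113 CPM for Synpo, 38.3 CPM for Podxl, 373 CPM for Cd2ap and 325 CPM for Kirrel. The name podocyte is therefore used here for the line, whose slit diaphragm genes were near 0.

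Usp40, the targeted gene, was examined in every library first. Usp40 (ENSMUSG00000005501), on the minus strand of chromosome 1 between 87872841 and 87936273 in build GRCm39, had 14.7, 15.6 and 16.9 CPM with siRNA 1, 19.2, 17.3 and 21.2 CPM with siRNA 2, and 31.8, 33.8 and 40.9 CPM with the control siRNA. Every siRNA library lay below every control library, and the highest siRNA library, replicate 3 of siRNA 2, was the one nearest to the controls. The log2 fold change against control was -1.18 (SE 0.115) with siRNA 1 and -0.88 (SE 0.112) with siRNA 2. Dgkd, counted on the other strand, overlaps the end of Usp40, and no source used here says whether counting took strand into account. In bulk RNA, fewer cells with a transcript and less of it per cell cannot be told apart.

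Most of the shared differences were small. Genes above the controls had a median log2 fold change, averaged over both siRNAs, of 0.33, and genes below had a median of -0.26. An average change of at least 1.25-fold was seen in 282 of 547 genes above (51.6%) and 163 of 548 below (29.7%), and one of at least 2-fold in 11 above and 4 below. Over all tested genes, 864 (7.32%) passed an edgeR adjusted p of 0.05 in that average, 195 (1.65%) with siRNA 1 and 1913 (16.2%) with siRNA 2, which is given as background only. For the typical gene the nearest siRNA and control libraries were close, with a median gap of 1.05-fold above and 1.03-fold below. A gap of at least 1.1-fold was left in 143 genes above and 71 below, and of at least 1.2-fold in 43 and 10. At 1.5-fold the genes left were Pard3b, H2bc4 and Alpk1 above and Eif4ebp3 below.

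By library, the median log2 level of the genes above, relative to the mean of the controls, was 0.26, 0.31 and 0.25 with siRNA 1 and 0.37, 0.33 and 0.35 with siRNA 2, while the control libraries lay between -0.026 and 0.039. For the genes below, the medians were -0.20, -0.26 and -0.18 with siRNA 1 and -0.27, -0.25 and -0.29 with siRNA 2, with the controls between -0.039 and 0.019. The siRNA 2 libraries were usually farther from control, but this held over all tested genes as well. The siRNA 2 fold change was the larger one in 73.7% of the genes above and 67.7% of those below, beside 68.6% of all tested genes. The limit of the group was most often set by control replicate 3, which was the highest control for 47.5% of the genes above and the lowest for 50.7% of those below. On the siRNA side, replicates 1 and 3 of siRNA 1 were the nearest to the controls in 28.7% and 30.3% of the genes above and in 27.6% and 31.6% of those below. Each siRNA 2 library was the nearest in 7.31% to 10.6%. Without control replicate 3 the rule took 1267 genes above and 1382 below, without control replicate 1 it took 899 and 961, and without siRNA 1 replicate 1 it took 830 and 824, with 1 library fewer to satisfy each time.

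At the edge of the rule, the genes inside differed little from those outside. Rpgrip1l, just inside above, had 28.5, 32.4 and 28.1 CPM with siRNA 1, 32.2, 30.8 and 33.8 CPM with siRNA 2, and 26, 27.7 and 28.1 CPM with the control. Tomm40, just outside above, had 74.6, 79.9 and 77.1 CPM with siRNA 1, 72.3, 80.2 and 73.1 CPM with siRNA 2, and 72.3, 72.1 and 71 CPM with the control. Limch1 was the next gene inside above, and neither it nor Rpgrip1l was above all controls with CPM from library totals, after each library was corrected for transcript length, or with the authors' scaled CPM. Below, Ublcp1, just inside, had 41, 39.6 and 42.4 CPM with siRNA 1, 38.8, 39.6 and 39.8 CPM with siRNA 2, and 52.8, 44.1 and 42.4 CPM with the control, while Anxa9, just outside, had 8.92, 9.76 and 9.2 CPM with siRNA 1, 7.76, 8.48 and 8.41 CPM with siRNA 2, and 9.85, 10.2 and 9.75 CPM with the control. Cog8 and Cdk6 were the next genes inside and outside below.

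The widest gap above the controls belonged to Pard3b (chromosome 1, 61677983 to 62681443), a homolog of the Par3 scaffold of cell polarity. It had 13.6, 16.2 and 14.5 CPM with siRNA 1, 23.3, 19.6 and 19.8 CPM with siRNA 2, and 7.37, 7.13 and 7.8 CPM with the control siRNA. The control libraries were within 1 CPM of each other, and every siRNA library stood well clear of them (log2 fold change 0.99, SE 0.117, with siRNA 1 and 1.48, SE 0.113, with siRNA 2). H2bc4 (chromosome 13, 23868182 to 23876891), which encodes a copy of histone H2B, had 13, 13.8 and 14.2 CPM with siRNA 1, 40.1, 60.5 and 58.3 CPM with siRNA 2, and 7.45, 5.37 and 7.64 CPM with the control. In both genes the siRNA groups did not overlap each other, siRNA 2 being the farther from control. The H2bc4 level is uncertain, because other histone copies of nearly the same sequence can take its reads and poly(A) selection misses histone RNA without a tail.

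Msrb3 (chromosome 10, 120617001 to 120735006), which reduces oxidized methionine in proteins, had 85.9, 93.3 and 86.2 CPM with siRNA 1, 95.8, 99 and 108 CPM with siRNA 2, and 60.7, 57.5 and 57.7 CPM with the control. Crk (chromosome 11, 75570085 to 75597734), an adaptor that links phosphotyrosine signals to the cytoskeleton, had 197, 205 and 195 CPM with siRNA 1, 203, 204 and 209 CPM with siRNA 2, and 141, 144 and 137 CPM with the control. The siRNA libraries of Crk overlapped each other while all of them stood above the controls, and its log2 fold changes were 0.50 (SE 0.0597) and 0.55 (SE 0.0597). Osbp, a carrier of oxysterols at membrane contacts, also had overlapping siRNA groups above the controls, with 138, 155 and 151 CPM with siRNA 1, 152, 148 and 149 CPM with siRNA 2, and 90.7, 105 and 98.8 CPM with the control.

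Lpcat1, which reacylates lysophosphatidylcholine, had 85.8, 85.3 and 83.9 CPM with siRNA 1, 73.4, 66.7 and 65.5 CPM with siRNA 2, and 50, 49 and 48.2 CPM with the control, so here siRNA 1 was the farther of the siRNAs. Rbm18, an RNA-binding gene, had 38.6, 36.3 and 35.2 CPM with siRNA 1, 29.3, 31.1 and 30.8 CPM with siRNA 2, and 22.2, 22.5 and 18.1 CPM with the control. The order was the same as for Lpcat1, but Mrrf, counted on the other strand with nearly as many reads, overlaps Rbm18, and its values are uncertain. Lipg, the endothelial lipase, had 6.37, 5.91 and 5.68 CPM with siRNA 1, 10.3, 10 and 9.48 CPM with siRNA 2, and 4.2, 4.26 and 3.17 CPM with the control. Hectd2, a HECT-type ubiquitin ligase gene, had 3.74, 4.56 and 3.96 CPM with siRNA 1, 4.34, 5.29 and 4.89 CPM with siRNA 2, and 2.83, 2.78 and 2.84 CPM with the control. In Hectd2 the siRNA groups overlapped. The other genes among the 12 with the widest gap above were the low-level Gm8113, Procr (a receptor for protein C) and Cacng4 (an auxiliary channel subunit), with average log2 fold changes of 0.69 (SE 0.15), 0.64 (SE 0.18) and 1.16 (SE 0.207).

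**Figure D1:**
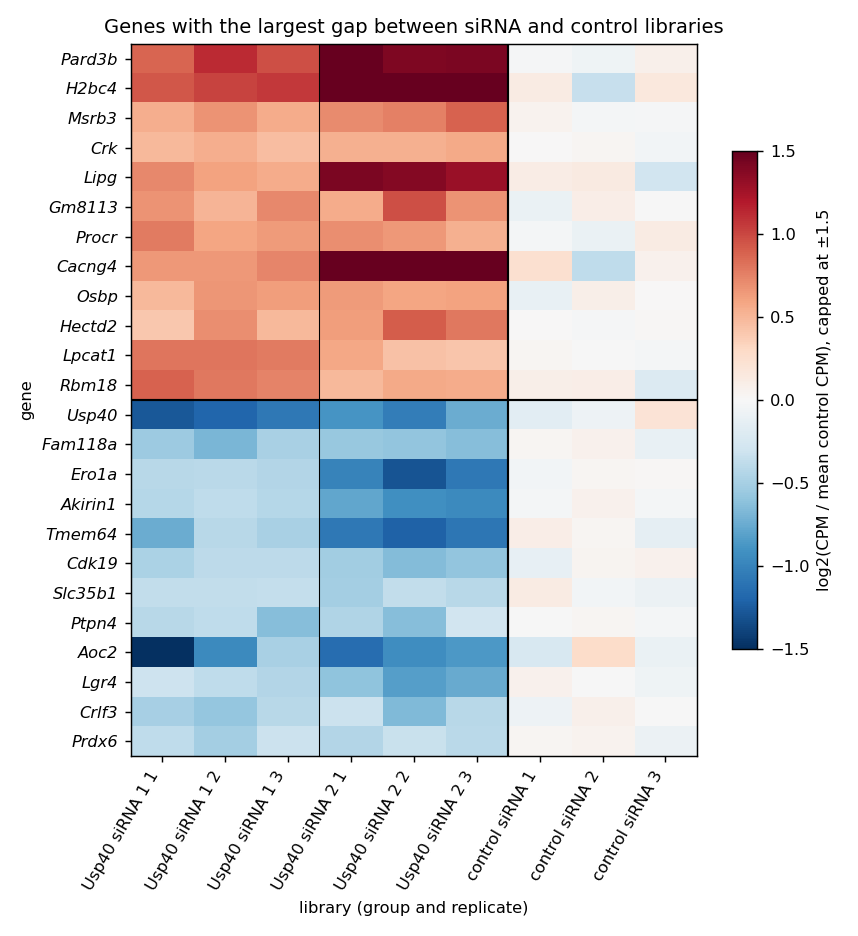
Color gives the log2 ratio of each library's CPM (columns, 3 per group) to the mean of the control libraries, limited to ±1.5, for the 12 genes above and 12 genes below the controls with the widest gap (rows). The siRNA libraries are all red in the upper block and all blue in the lower one, with H2bc4 at the limit in all 3 siRNA 2 libraries, and the control libraries stay near white.

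Below the controls, Usp40 itself had the widest gap among genes with a mean of at least 2 CPM. Fam118a came next (chromosome 15, 84913149 to 84947031), with 23, 20.9 and 24 CPM with siRNA 1, 22.8, 22.3 and 21.6 CPM with siRNA 2, and 34.5, 35.3 and 31.2 CPM with the control. The siRNA libraries of Fam118a were intermingled, and its log2 fold changes were -0.57 (SE 0.0839) and -0.60 (SE 0.0838). Ero1a (chromosome 14, 45520544 to 45556228), the oxidase that drives disulfide formation in the endoplasmic reticulum (ER), had 93.5, 94.2 and 92.1 CPM with siRNA 1, 62.3, 50.8 and 59.4 CPM with siRNA 2, and 121, 127 and 126 CPM with the control. The 3 groups of Ero1a were fully separate. Akirin1, a nuclear protein gene, had 53.2, 54.9 and 53.1 CPM with siRNA 1, 41.5, 37.8 and 36.9 CPM with siRNA 2, and 69.7, 74.4 and 70 CPM with the control. Tmem64, a transmembrane protein gene, had 26.7, 33.5 and 32.1 CPM with siRNA 1, 21.4, 19.4 and 21.2 CPM with siRNA 2, and 48.1, 45.6 and 40.7 CPM with the control. Both showed the same 3 steps as Ero1a.

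Lgr4, a receptor for R-spondins that strengthens Wnt signals, had 115, 110 and 105 CPM with siRNA 1, 94.1, 80.6 and 84.6 CPM with siRNA 2, and 149, 142 and 136 CPM with the control. Its groups did not overlap. Cdk19, a kinase of the Mediator complex, had 65, 68.5 and 68.7 CPM with siRNA 1, 62.8, 57.3 and 60 CPM with siRNA 2, and 83, 93 and 94.3 CPM with the control. Prdx6, a peroxiredoxin, had 150, 137 and 157 CPM with siRNA 1, 144, 156 and 148 CPM with siRNA 2, and 200, 202 and 185 CPM with the control. The siRNA libraries of Prdx6 overlapped one another, as did those of the ER nucleotide transporter gene Slc35b1, the tyrosine phosphatase gene Ptpn4, the amine oxidase gene Aoc2 and Crlf3, a cytokine receptor-like gene. Average log2 fold changes of these were -0.40 (SE 0.0611) for Prdx6, -0.40 (SE 0.0637) for Slc35b1, -0.46 (SE 0.0859) for Ptpn4, -0.93 (SE 0.22) for Aoc2 and -0.48 (SE 0.082) for Crlf3.

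**Figure D2:**
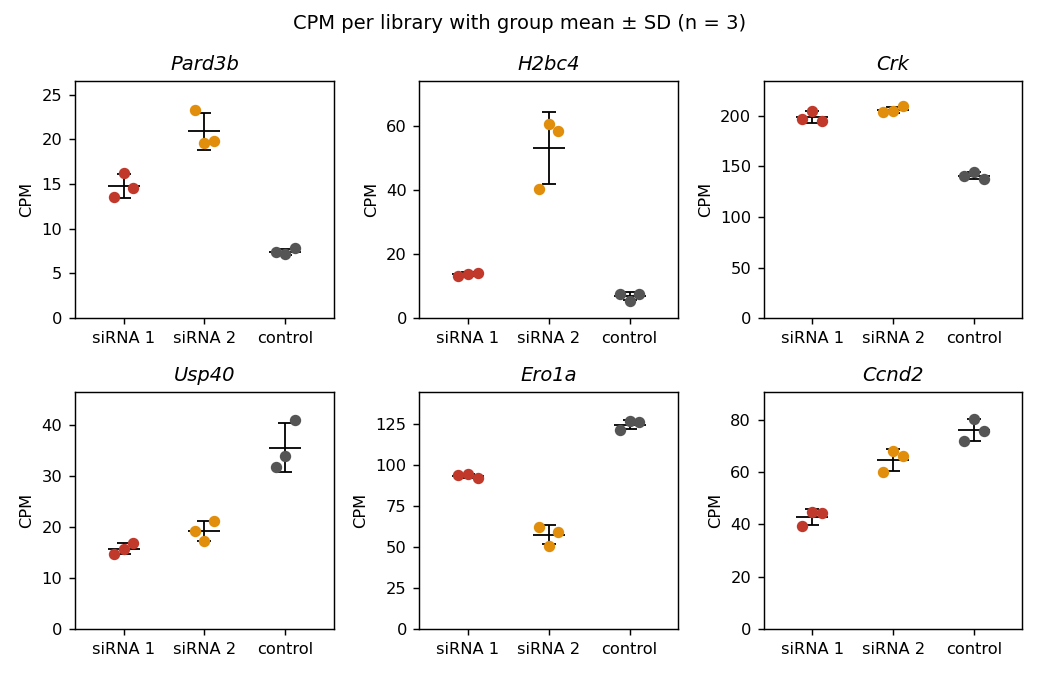
Each panel plots CPM (vertical axis from 0) in the 3 libraries of siRNA 1, siRNA 2 and the control for 1 gene, with the group mean and SD as bars. Pard3b, H2bc4 and Crk lie above their controls and Usp40, Ero1a and Ccnd2 below, and the siRNA groups are separate from each other in all but Crk.

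The sequence around the start of transcription is shown for genes with the widest gaps that have an entry, 2 above (Pard3b and Msrb3) and 2 below (Usp40 and Fam118a), so that the regions from which these transcripts begin can be read beside their levels. Each is the 300-base RefSeq promoter window (250 bases before the start and 50 after it), from a table in build GRCm38.p6, read 5′ to 3′ on the gene's strand. The letters match GRCm39 exactly, and coordinates are given in that build. Fam118a has 4 windows in the table, of which the first is shown, and its start lies 8141 bases inside the annotated gene. Capitals mark matches to 3 of the 8 motifs searched on both strands, namely TTTGAA, the core of the cell cycle homology region, the TATA box with the letters TATAAA, and the CCAAT box.
Pard3b, chr1:61677733-61678032, plus strand: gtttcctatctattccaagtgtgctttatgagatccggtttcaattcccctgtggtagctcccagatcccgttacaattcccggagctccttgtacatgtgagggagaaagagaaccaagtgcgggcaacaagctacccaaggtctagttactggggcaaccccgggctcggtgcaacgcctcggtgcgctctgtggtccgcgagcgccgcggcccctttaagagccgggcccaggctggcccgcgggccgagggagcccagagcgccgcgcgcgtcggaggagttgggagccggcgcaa
Msrb3, chr10:120734827-120735126, minus strand: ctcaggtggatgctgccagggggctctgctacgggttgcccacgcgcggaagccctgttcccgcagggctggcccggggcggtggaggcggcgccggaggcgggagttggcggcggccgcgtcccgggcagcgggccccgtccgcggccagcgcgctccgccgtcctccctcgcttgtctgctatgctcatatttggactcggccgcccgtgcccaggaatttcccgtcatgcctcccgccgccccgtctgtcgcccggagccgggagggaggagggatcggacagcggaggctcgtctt
Usp40, chr1:87936224-87936523, minus strand: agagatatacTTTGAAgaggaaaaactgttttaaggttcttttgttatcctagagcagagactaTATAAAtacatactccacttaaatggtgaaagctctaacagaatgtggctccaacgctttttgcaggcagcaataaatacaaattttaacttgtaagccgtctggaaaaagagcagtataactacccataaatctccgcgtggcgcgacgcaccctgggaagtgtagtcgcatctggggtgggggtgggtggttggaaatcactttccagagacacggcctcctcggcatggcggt
Fam118a, chr15:84921040-84921339, plus strand: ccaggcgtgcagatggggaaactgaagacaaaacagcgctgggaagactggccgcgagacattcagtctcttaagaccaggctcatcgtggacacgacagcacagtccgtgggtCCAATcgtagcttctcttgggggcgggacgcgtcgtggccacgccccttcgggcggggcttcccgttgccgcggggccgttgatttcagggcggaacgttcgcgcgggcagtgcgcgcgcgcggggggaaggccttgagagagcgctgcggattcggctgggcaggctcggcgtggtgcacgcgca
The Usp40 window held the cell cycle motif and a TATA box, and the Fam118a window a CCAAT box. Of 27018 promoters in the table, 18.1% held the cell cycle motif, 14.2% the TATA box and 37.9% the CCAAT box on either strand, with 1 window a gene. Of the 9416 tested genes with an entry, 11.6%, 6.47% and 39.4% held these motifs. A match is a description of the letters only. The other motifs searched were the ER stress response element, which contains CCAAT, the ATF4 composite element TGATGNAAT, the antioxidant element TGACNNNGC, the interferon-stimulated response element and the E-box CACGTG, and the windows of Pard3b and Msrb3 held none of the 8. No comparison of motif shares between the groups of genes was made, since only 433 of the 547 genes above and 448 of the 548 below matched an entry.

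Several of the largest average changes were in genes of low level, but H2bc4, Usp40 and Pard3b had means of 24.5, 23.5 and 14.4 CPM. The 11 genes above with an average change of at least 2-fold were Pard3b, H2bc4, Cacng4, Alpk1, Slc1a2, Nlrp10, Xrra1, Aatk, Ankrd6, Lama3 and Shisal1, and the 4 below were Usp40, Eif4ebp3, Syne4 and Dynlt2a1. Those not named above were chosen after their values were seen. Alpk1, an innate immune kinase gene, had 2.12, 2.15 and 2.67 CPM with siRNA 1, 2.62, 1.79 and 1.65 CPM with siRNA 2, and 1.03, 0.925 and 1.06 CPM with the control, from 187 counts over all libraries. Syne4, a nuclear envelope linker gene, had 0.764, 0.626 and 0.946 CPM with siRNA 1, 0.605, 0.544 and 0.359 CPM with siRNA 2, and 1.8, 1.2 and 1.63 CPM with the control, from 99 counts. At such counts a step of a few reads moves a library by a large part of its level. Eif4ebp3, a translation repressor gene, had 0.679, 0.179 and 0.516 CPM with siRNA 1, 0.504, 0.7 and 0 CPM with siRNA 2, and 2.91, 2.68 and 1.06 CPM with the control, but it shares its region with the far more abundant Maskbp3 and is uncertain. Dynlt2a1 overlaps a near-identical copy, Dynlt2a2, and Xrra1 overlaps Spcs2 on the other strand. In all, 187 of the 1095 genes overlap a counted gene with over 10% of their own counts.

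The siRNAs were next compared with each other, to ask whether genes that moved to the same side of control did so by the same amount. By edgeR's quasi-likelihood test over all 11800 genes, siRNA 1 and siRNA 2 differed in 795 (6.74%), of which 501 were higher with siRNA 1 (4.25%) and 294 higher with siRNA 2 (2.49%). Of the 1095 shared genes, 73 differed (6.67%), 48 higher with siRNA 1 and 25 higher with siRNA 2, a share like the background. Among genes above the controls 20 of 547 differed (3.66%), 4 higher with siRNA 1 and 16 higher with siRNA 2. Among genes below 53 of 548 differed (9.67%), 44 higher with siRNA 1 and 9 higher with siRNA 2. Of these 73, the siRNA with the larger distance from control was thus siRNA 2 in 16 of 20 above and 44 of 53 below. Over all tested genes, called or not, the siRNA 2 fold change was the larger one in 68.6%. For the 1022 genes that did not pass, equality was not shown: the 95% interval of the difference reached a median of 0.18 to either side on the log2 scale.

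Among the genes higher with siRNA 1, the difference was often between little change and a clear one. Cyb5r4, a cytochrome b5 reductase gene, had 49.1, 50.6 and 51 CPM with siRNA 1 and 27.2, 25.2 and 21.9 CPM with siRNA 2, against 54.3, 53.5 and 51.3 CPM with the control. Its siRNA 1 libraries lay just under the controls and its siRNA 2 libraries far under them (siRNA 1 minus siRNA 2 on the log2 scale 1.02, SE 0.0848, edgeR adjusted p = 7.66e-05). Eif5a2, a translation factor gene, had 63.5, 69.3 and 68.6 CPM with siRNA 1 and 35.6, 36.5 and 39.5 CPM with siRNA 2, against 71.5, 71.4 and 76.2 CPM with the control (difference 0.85, SE 0.0737, edgeR adjusted p = 8.65e-05). The membrane traffic genes Vps54 and Rab8b differed by 0.79 (SE 0.0761, edgeR adjusted p = 0.000131) and 0.77 (SE 0.0926, edgeR adjusted p = 0.000418), and Mocs2, of molybdenum cofactor synthesis, by 0.77 (SE 0.0885, edgeR adjusted p = 0.000324). Against the control, the siRNA 1 log2 fold changes of Cyb5r4, Eif5a2, Vps54, Mocs2 and Rab8b were -0.08, -0.12, -0.18, -0.22 and -0.17, and those of siRNA 2 -1.10, -0.97, -0.98, -0.99 and -0.94. Cyb5r4 and Rab8b were not below all controls after each library was corrected for transcript length. Ero1a differed by 0.70 (SE 0.079, edgeR adjusted p = 0.000294).

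Higher with siRNA 2 were genes on both sides of the controls. H2bc4 had the widest difference, of -1.96 (SE 0.155, edgeR adjusted p = 7.31e-05), and Cacng4 and Lipg differed by -0.99 (SE 0.202, edgeR adjusted p = 0.0115) and -0.73 (SE 0.132, edgeR adjusted p = 0.0057). C3, the central complement protein gene, had 17.8, 18.5 and 13.9 CPM with siRNA 1, 30, 22.6 and 24.9 CPM with siRNA 2, and 11.9, 9.72 and 12.4 CPM with the control (difference -0.62, SE 0.136, edgeR adjusted p = 0.0177). These 4 were above the controls and farther with siRNA 2. Ccnd2, cyclin D2 of the G1 phase, had 39.4, 44.7 and 44.3 CPM with siRNA 1, 60, 68.1 and 66.1 CPM with siRNA 2, and 71.9, 80.4 and 75.7 CPM with the control (difference -0.60, SE 0.0818, edgeR adjusted p = 0.000911). Slc35f6, a solute carrier gene, had 40.6, 37 and 38.8 CPM with siRNA 1, 61.2, 56.5 and 60.4 CPM with siRNA 2, and 66.6, 63.4 and 62.2 CPM with the control (difference -0.61, SE 0.0716, edgeR adjusted p = 0.000332). Ccnd2 and Slc35f6 were below the controls and farther with siRNA 1, but Slc35f6 was not below all controls with library totals in place of scaled library sizes.

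Of the 24 genes with the widest gaps, 9 differed between the siRNAs: Pard3b (-0.50), H2bc4, Lipg, Cacng4 and Lpcat1 (0.31) above, and Ero1a, Akirin1 (0.47), Tmem64 (0.57) and Lgr4 (0.35) below. Usp40 was among the 15 that did not pass, at -0.29 (95% interval -0.55 to -0.03, edgeR adjusted p = 0.185). Among the intervals that held 0 were those of Crk (-0.18 to 0.08), Osbp (-0.17 to 0.14), Prdx6 (-0.17 to 0.14), Slc35b1 (-0.10 to 0.23) and Fam118a (-0.16 to 0.22). Those of Gm8113, Procr, Hectd2, Ptpn4, Aoc2 and Crlf3 also held 0 and were wider, with Aoc2 at -0.59 to 0.67. By full separation of the siRNA libraries, siRNA 2 was the farther group in 136 genes above and 139 below, siRNA 1 in 23 and 41, and the siRNA groups overlapped in 388 and 368 (70.9% and 67.2%, beside 69.1% of all tested genes). The counts of 48 higher with siRNA 1 and 25 higher with siRNA 2 moved with single libraries. Leaving out siRNA 1 replicate 3 gave 31 and 11, and leaving out control replicate 1 gave 59 and 40. Leaving out siRNA 2 replicate 1 gave 33 and 11, its replicate 2 gave 30 and 14, and its replicate 3 gave 28 and 12. Without siRNA 2 replicate 3, Cacng4, C3, Lgr4, Lpcat1, Fth1, H2aj and Ezr no longer passed. Pard3b did not pass without siRNA 1 replicate 1 or 3 or siRNA 2 replicate 1.

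**Figure D3:**
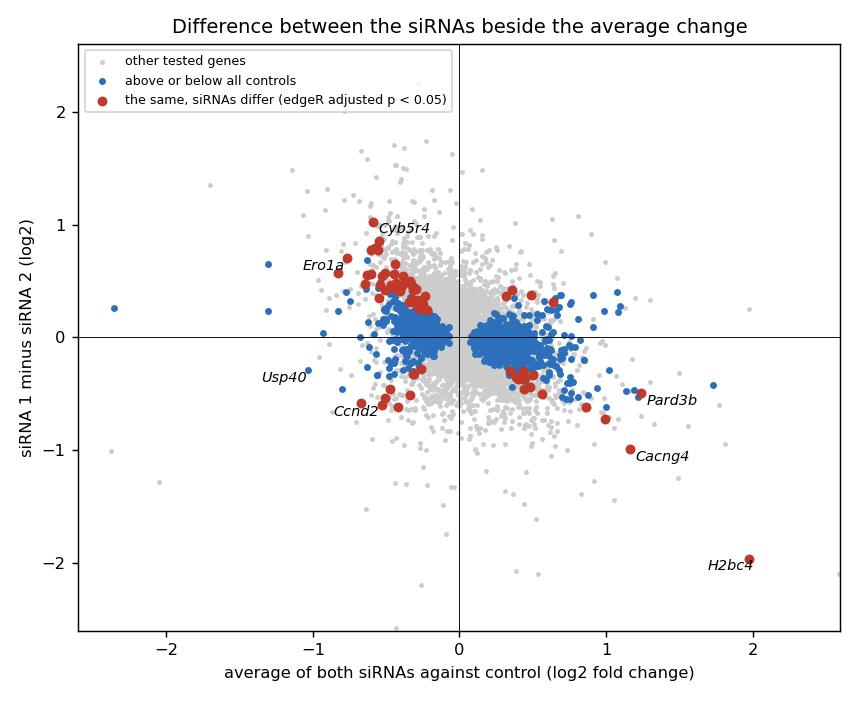
Each point is a tested gene, with the log2 fold change averaged over both siRNAs against the control on the horizontal axis and siRNA 1 minus siRNA 2 (log2) on the vertical axis, both limited to ±2.6. Genes on 1 side of all controls are blue, and the 73 of them that differed between the siRNAs are red, with H2bc4 at -1.96 and Cyb5r4 at 1.02 at the ends.

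The shared genes were then read by function, through 28 gene lists. Of the 1095 genes, 98 (8.95%) were in any list, and counts are read against 4.64% on each side over all tested genes. Within the ubiquitin system, 9 of 40 proteasome subunit genes (22.5%) lay below all controls and 0 above. The list had a median average log2 fold change of -0.18, beside -0.0049 over all tested genes, and 38 of its 40 genes had a negative one. A negative sign was as common in 45 of 47 oxidative phosphorylation genes (median -0.16) and 73 of 77 cytosolic ribosomal protein genes (median -0.08). All 3 lists hold short transcripts, with median lengths of 1668.5, 1258 and 1096 nt, beside 3491 nt over all tested genes. Psma1, a subunit of the catalytic core, had 135, 111 and 120 CPM with siRNA 1, 141, 146 and 140 CPM with siRNA 2, and 207, 176 and 164 CPM with the control. Adrm1, a ubiquitin receptor of the proteasome, had 133, 133 and 145 CPM with siRNA 1, 131, 126 and 122 CPM with siRNA 2, and 155, 158 and 157 CPM with the control. The ATPase gene Psmc4 and the core gene Psma7 had average log2 fold changes of -0.20 (SE 0.0528) and -0.27 (SE 0.0709), and Psmd11, Psmd4, Psmc3, Psmc2 and Psmc5 completed the 9. The list's library medians were -0.02, -0.21 and -0.07 with siRNA 1, -0.29, -0.21 and -0.30 with siRNA 2, and 0.14, -0.03 and -0.08 with the control, so siRNA 1 replicates 1 and 3 lay among the controls. The count was 17 without control replicate 3 and 5 after each library was corrected for transcript length, a correction added after the data were seen that also took out Adrm1, Psmc4 and Psma7.

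Of 33 ubiquitin-conjugating (E2) enzyme genes, 5 lay below the controls (15.2%) and 0 above: Ube2f and Ube2q1, Ube2c, which serves the anaphase-promoting complex, Ube2v1 and Ube2e3. Ube2e3 had 81.9, 65.1 and 70.1 CPM with siRNA 1, 103, 99.6 and 95.5 CPM with siRNA 2, and 129, 119 and 105 CPM with the control, and it differed between the siRNAs (-0.46, SE 0.0975, edgeR adjusted p = 0.0148), a call lost without siRNA 1 replicate 3 or siRNA 2 replicate 1 or 2. The count was 10 without siRNA 1 replicate 1, 9 without control replicate 1 and 12 without control replicate 3. Ube2e3 was not below all controls with library totals, nor Ube2c after the length correction. Of 47 other ubiquitin-specific protease genes, 4 lay above and 1 below. Usp30, a mitochondrial outer membrane deubiquitinase that opposes removal of damaged mitochondria, had 63.1, 62.8 and 62.5 CPM with siRNA 1, 68.9, 65.8 and 68.3 CPM with siRNA 2, and 46.9, 50 and 50.9 CPM with the control. Alkbh2, counted on the other strand, overlaps Usp30, whose value is uncertain. Usp25 had 103, 105 and 100 CPM with siRNA 1, 118, 120 and 119 CPM with siRNA 2, and 84.6, 97.8 and 95.7 CPM with the control. Usp35 and Usp27x had average log2 fold changes of 0.47 (SE 0.154) and 0.33 (SE 0.118) at lower levels, and Usp39, a splicing factor, -0.18 (SE 0.0594), which the length correction took out. Without control replicate 1, 3 of these protease genes lay below.

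Among lists of stress responses, the shared ATF4 and CHOP targets and ER chaperone genes lay mostly below the controls. The other stress lists did not: cytosolic heat shock genes gave 0 on either side, NRF2 targets 1 above and 1 below, and p53 targets 1 above and 0 below. Of 23 targets of ATF4 and CHOP, the transcription factors of the integrated stress response, 7 lay below the controls and 1 above (34.8% together, beside 9.28%). Phgdh, the first enzyme of serine synthesis, had 576, 566 and 622 CPM with siRNA 1, 526, 574 and 533 CPM with siRNA 2, and 661, 745 and 685 CPM with the control. Atf4 itself had 227, 235 and 257 CPM with siRNA 1, 236, 240 and 222 CPM with siRNA 2, and 266, 301 and 278 CPM with the control. The siRNA groups overlapped in both. The pseudokinase gene Trib3 and the related factor gene Atf5 had average log2 fold changes of -0.45 (SE 0.0949) and -0.34 (SE 0.0788), and Psat1, Nupr1 and Asns were the others. Atf5 overlaps Nup62 on the other strand and is uncertain. Vldlr, a lipoprotein receptor gene, lay above (0.15, SE 0.0646). The list's library medians were -0.26, -0.10 and -0.01 with siRNA 1, -0.14, -0.13 and -0.15 with siRNA 2, and -0.08, 0.06 and -0.02 with the control. After the length correction 2 lay below and 0 above, and Phgdh, Trib3, Atf4, Atf5 and Vldlr were no longer on 1 side.

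Of 30 ER chaperone and disulfide oxidase genes, 5 lay below and 1 above. Besides Ero1a these were the calcium-binding chaperone gene Calr, the co-chaperone genes Dnajb11 and Dnajc3, and Creld2, with average log2 fold changes of -0.15 (SE 0.0581) for Calr, -0.21 (SE 0.0584) for Dnajb11 and -0.25 (SE 0.0729) for Creld2. Calu, a calcium-binding protein of the secretory pathway, lay above, with 422, 420 and 417 CPM with siRNA 1, 470, 464 and 462 CPM with siRNA 2, and 373, 380 and 379 CPM with the control. Its siRNA groups were separate, but their difference (-0.15, 95% interval -0.28 to -0.02) did not pass the threshold by edgeR (adjusted p = 0.165). It passed with DESeq2. The count below was 9 without control replicate 3 and 3 after the length correction, when Calr and Creld2 were no longer below. Cytosolic heat shock genes gave 0 of 27 on either side, and 5 below without control replicate 3.

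Of 52 genes of G2 and mitosis, 14 lay below all controls (26.9%) and 0 above. Aurka, a spindle kinase, had 48.9, 50.3 and 51.8 CPM with siRNA 1, 48.5, 48.1 and 44.8 CPM with siRNA 2, and 60.6, 60.7 and 57.6 CPM with the control. Birc5 (survivin), of the chromosomal passenger complex, had 80, 72.8 and 85.8 CPM with siRNA 1, 53.7, 55.8 and 52.6 CPM with siRNA 2, and 99.9, 106 and 92.3 CPM with the control. Birc5 was the only gene of the list that differed between the siRNAs (0.56, SE 0.0815, edgeR adjusted p = 0.00141). Cdca3, a trigger of mitotic entry, and the mitotic kinase Pbk had average log2 fold changes of -0.28 (SE 0.0622) and -0.44 (SE 0.0695). The others were Cdk1, Plk1 and Ccna2, the anaphase genes Cdc20, Pttg1 and Ube2c, the kinetochore genes Spc25, Nuf2 and Cenpa, and Cdca8. Library medians of the list were -0.21, -0.08 and -0.07 with siRNA 1, -0.10, -0.00083 and -0.02 with siRNA 2, and -0.07, 0.05 and 0.05 with the control, so the list as a whole overlapped the controls. The count below was 8 with library totals in place of scaled library sizes, and 8 after the length correction, when Birc5 was no longer below.

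DNA replication and S phase genes were split evenly, with 3 of 54 above and 3 below. Lig1, the replicative DNA ligase, the clamp loader gene Rfc1 and the helicase gene Mcm6 lay above, with average log2 fold changes of 0.21 (SE 0.054), 0.27 (SE 0.0705) and 0.11 (SE 0.0578). Dbf4, the activator of the Cdc7 kinase, the ribonucleotide reductase gene Rrm2 and the cyclin E gene Ccne1 lay below, at -0.35 (SE 0.0744), -0.21 (SE 0.0644) and -0.13 (SE 0.0667). After the length correction 7 of the 54 lay above and Ccne1 was not below, and Mcm6 was not above with library totals or the authors' scaled CPM. Without control replicate 2, 7 lay above and 3 below, without control replicate 3 it was 6 and 5, and without control replicate 1 it was 5 and 6. Without siRNA 1 replicate 2, 5 lay above, and without its replicate 3, 6. Of 31 histone genes, H2bc4 lay above and the variant genes H2az1 and H2aj below. H2aj had 62.5, 56.7 and 60.9 CPM with siRNA 1, 43.9, 47.4 and 42.3 CPM with siRNA 2, and 77.3, 69.6 and 63.2 CPM with the control (siRNA difference 0.43, SE 0.0877, edgeR adjusted p = 0.0113). Of 34 p53 targets Plk3 lay above the controls, at 0.25 (SE 0.0907), but not with the authors' scaled CPM. Without control replicate 3, 6 p53 targets lay below, without control replicate 2, 3 lay above, and without control replicate 1, 2 lay on each side. In each of these settings the rule also took more of all tested genes.

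Of 44 interferon-stimulated genes, 5 lay above (11.4%) and 0 below. Oas1a, a sensor of double-stranded RNA, had 5.35, 5.01 and 5.08 CPM with siRNA 1, 4.03, 5.13 and 4.6 CPM with siRNA 2, and 2.91, 3.79 and 3.41 CPM with the control. Gbp2, an interferon-induced GTPase, had 11.2, 11 and 10.1 CPM with siRNA 1, 10.7, 11.2 and 9.92 CPM with siRNA 2, and 8.39, 8.79 and 8.7 CPM with the control. The siRNA groups overlapped in both genes. Gbp3 had an average log2 fold change of 0.26 (SE 0.117), Parp9 0.30 (SE 0.0777) and Irf7 was the last of the 5. Parp9 and Irf7 overlap counted genes on the other strand, Dtx3l and Phrf1, and are uncertain. The control cells also received an siRNA and the transfection agent. The list's library medians were 0.22, 0.17 and 0.14 with siRNA 1, 0.10, 0.09 and -0.00049 with siRNA 2, and 0.07, -0.03 and -0.05 with the control, and the count was 8 without control replicate 1.

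Of 16 genes listed for the small RNA silencing machinery, 3 lay above, of which Tlr3 is a sensor and not part of that machinery. Tnrc6a, the scaffold that joins Argonaute to the silencing enzymes, had 98.3, 132 and 111 CPM with siRNA 1, 102, 107 and 111 CPM with siRNA 2, and 68.2, 72.8 and 76.9 CPM with the control. Drosha, which cuts primary microRNA transcripts, and Tlr3, a receptor for double-stranded RNA, had average log2 fold changes of 0.24 (SE 0.0786) and 0.30 (SE 0.082). In these 3 the siRNA groups overlapped. Of 20 genes of NF-kB and chemokines, C3 and Rela, the p65 subunit, lay above. Rela had 153, 149 and 158 CPM with siRNA 1, 174, 157 and 159 CPM with siRNA 2, and 139, 140 and 143 CPM with the control.

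**Figure D4:**
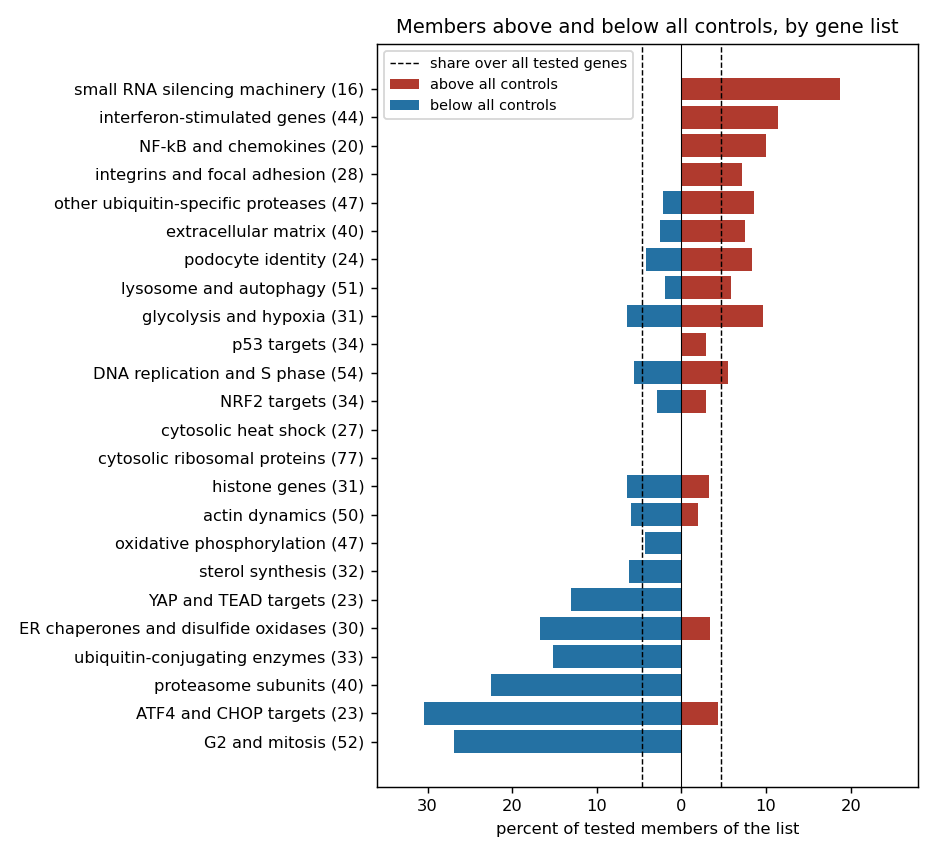
Bars give, for 24 gene lists with their number of tested genes in brackets, the percent of genes above all controls (right, red) and below them (left, blue). Dashed lines mark 4.64%, the share over all tested genes on each side, and the widest bars are those of ATF4 and CHOP targets and of G2 and mitosis on the lower side.

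Of 24 tested podocyte identity genes, 2 lay above and 1 below. Synpo, the actin-associated protein of foot processes, had 119, 134 and 118 CPM with siRNA 1, 123, 109 and 117 CPM with siRNA 2, and 90.5, 97.7 and 107 CPM with the control. Efnb1, an ephrin found at the slit diaphragm, had 48.7, 46.5 and 44 CPM with siRNA 1, 53.4, 48.5 and 51.4 CPM with siRNA 2, and 36.1, 38.1 and 40.7 CPM with the control. Arhgdia, an inhibitor of small GTPases, lay below by little (-0.11, SE 0.0611), and not after the length correction or with library totals. Without control replicate 3, 5 podocyte genes lay above, and without siRNA 1 replicate 3, 2 lay below. Of 28 integrin and focal adhesion genes, the adhesion genes Zyx and Tns1 lay above, at 0.17 (SE 0.0574) and 0.48 (SE 0.127). The count above was 9 without control replicate 3 and 4 without siRNA 1 replicate 1, and Tns1 was not above with the authors' scaled CPM. Over all tested genes, 1267 lay above without control replicate 3 and 830 without siRNA 1 replicate 1, beside 547 with every library. Of 40 extracellular matrix genes, Tnc, Tgm2 and Col6a1 lay above and the growth factor gene Tgfb2 below. Tnc, the matrix glycoprotein tenascin C, had 198, 249 and 197 CPM with siRNA 1, 251, 209 and 239 CPM with siRNA 2, and 135, 155 and 182 CPM with the control. Tgm2 overlaps Rprd1b on the other strand and is uncertain.

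Of 50 actin genes, the small GTPase gene Rhob lay above, at 0.23 (SE 0.0623), and the tropomyosin gene Tpm3, the membrane linker gene Ezr and the profilin gene Pfn2 below. Pfn2 had 170, 157 and 182 CPM with siRNA 1, 119, 116 and 114 CPM with siRNA 2, and 210, 216 and 182 CPM with the control (siRNA difference 0.54, SE 0.0813, edgeR adjusted p = 0.00176). Ezr had 654, 638 and 632 CPM with siRNA 1, 530, 459 and 454 CPM with siRNA 2, and 658, 691 and 726 CPM with the control (siRNA difference 0.42, SE 0.0765, edgeR adjusted p = 0.00627). In Ezr the siRNA 1 libraries lay close under the controls, and it was not below all controls with library totals. The length correction gave 3 actin genes above and 6 below, without Tpm3, and 4 matrix genes above and 3 below. Without control replicate 3 the actin genes were 1 above and 11 below, without control replicate 1 they were 5 and 4, without siRNA 1 replicate 1 they were 2 and 7, and without its replicate 3 they were 2 and 5. The matrix genes were 5 above and 5 below without control replicate 1, 6 and 1 without control replicate 3, 5 and 1 without siRNA 1 replicate 1, 5 and 3 without its replicate 2, and 3 and 2 without its replicate 3. With any of these libraries left out, more of all tested genes were taken as well. Of 23 YAP and TEAD targets, Tgfb2, Nuak2 and Rbms3 lay below, with average log2 fold changes of -0.32 (SE 0.0712), -0.16 (SE 0.0549) and -0.40 (SE 0.167).

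Metabolic and housekeeping lists were then read. None of 77 cytosolic ribosomal protein genes lay on 1 side of all controls, although 5 lay above after the length correction. Of 47 oxidative phosphorylation genes, the cytochrome genes Cyc1 and Cycs lay below, at -0.19 (SE 0.0658) and -0.44 (SE 0.091), a count of 4.26%, and Cyc1 was not below after the length correction. The count below was 7 without siRNA 1 replicate 1 and 6 without control replicate 3. Of 32 sterol synthesis genes, Msmo1 and Sc5d lay below, at -0.38 (SE 0.0761) and -0.20 (SE 0.0611), and the count below was 6 without control replicate 3 and 4 without siRNA 1 replicate 1 or control replicate 1 or 2. In the list of glycolysis and hypoxia, the glycolytic enzyme genes Hk1 and Pfkm and the hypoxia gene Ndrg1 lay above and Ero1a and the collagen hydroxylase gene P4ha1 below, which is 5 of 31 (16.1%, beside 9.28%). Pfkm was not above after the length correction, 5 lay above without control replicate 2, and 4 lay below without siRNA 1 replicate 3. Of 51 lysosome and autophagy genes, the autophagy receptor genes Optn and Nbr1 and the acid glucosidase gene Gaa lay above and the galactosidase gene Gla below. Without control replicate 1, 7 of these lay above, and without control replicate 3, 5 lay above and 6 below. Of 34 NRF2 targets, Prdx6 lay below and Fth1, the ferritin heavy chain, above. Without control replicate 1, 3 lay above, and without control replicate 3, 4 lay below. For all these metabolic lists, leaving out a library also raised the number taken over all tested genes. Fth1 had 1921, 1855 and 2072 CPM with siRNA 1, 1518, 1556 and 1420 CPM with siRNA 2, and 1356, 1170 and 1125 CPM with the control, farther with siRNA 1 (siRNA difference 0.38, SE 0.0849, edgeR adjusted p = 0.0191).

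Markers of other kidney cells were read in the same way. Of the endothelial markers only Flt1, a VEGF receptor gene, had enough counts, and it lay above, with 8.49, 11.5 and 8.34 CPM with siRNA 1, 11.8, 10.7 and 12.9 CPM with siRNA 2, and 5.48, 7.5 and 6.75 CPM with the control. The 6 endothelial markers summed to 9.03 to 12.2 CPM with siRNA 1, 11.2 to 13.5 CPM with siRNA 2 and 5.74 to 8.05 CPM with the control, with Emcn at 0. Flt1, itself taken by the rule, made up most of each sum. The sums therefore say little about the other endothelial markers. Of 7 parietal or tubular markers, Krt7 and Aqp1 lay below, at -0.45 (SE 0.124) and -0.21 (SE 0.0698), Aqp1 not after the length correction. The summed level of that list was 1063 to 1137 CPM with siRNA 1, 1052 to 1151 CPM with siRNA 2 and 1068 to 1192 CPM with the control. None of 4 mesangial and 3 immune markers lay on 1 side, and Ren1, Itgam, Cd3e and Adgre1 had 0 counts. The part of these markers in the other results was not tested.

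A property that the rule did not use, transcript length, differed between the genes above and those below, although their lengths overlapped. Genes above the controls had a median annotated transcript length of 4280 nt and genes below one of 2690 nt, beside 3491 nt over all tested genes. Transcripts over 4000 nt were 56.3% of the genes above, 26.5% of those below and 41.3% of all tested, and transcripts under 1500 nt were 1.46%, 14.6% and 11.2%. Across 5 classes of equal size from the shortest to the longest transcripts, 1.06%, 3.44%, 6.11%, 6.91% and 5.68% lay above the controls, and 7.07%, 6.16%, 4.07%, 3.31% and 2.59% below. The genes below were also the more abundant, with a median of 49.0 TPM (a level per transcript length) in the controls, against 15.98 TPM for those above and 25.7 TPM for all tested genes.

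The libraries themselves differed in this trend. The median log2 level of the longest class minus that of the shortest, relative to the mean of the controls, was -0.05, 0.36 and 0.05 with siRNA 1, 0.30, 0.21 and 0.38 with siRNA 2, and -0.26, 0.09 and 0.17 with the control. Control replicate 1 was the lowest and siRNA 2 replicate 3 the highest, and the siRNA 1 libraries overlapped the controls. With the trend of each library removed over 20 length classes, 633 genes lay above and 544 below, of which 427 and 349 were among the genes described here, and the median lengths became 3648 nt above and 3755 nt below. The 24 genes with the widest gaps were all on the same side after this correction. By chromosome, the share of tested genes on 1 side ran from 5.67% on chromosome 14 to 11.9% on chromosome 6, and was 0 of 13 for genes of the mitochondrial genome.

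**Figure D5:**
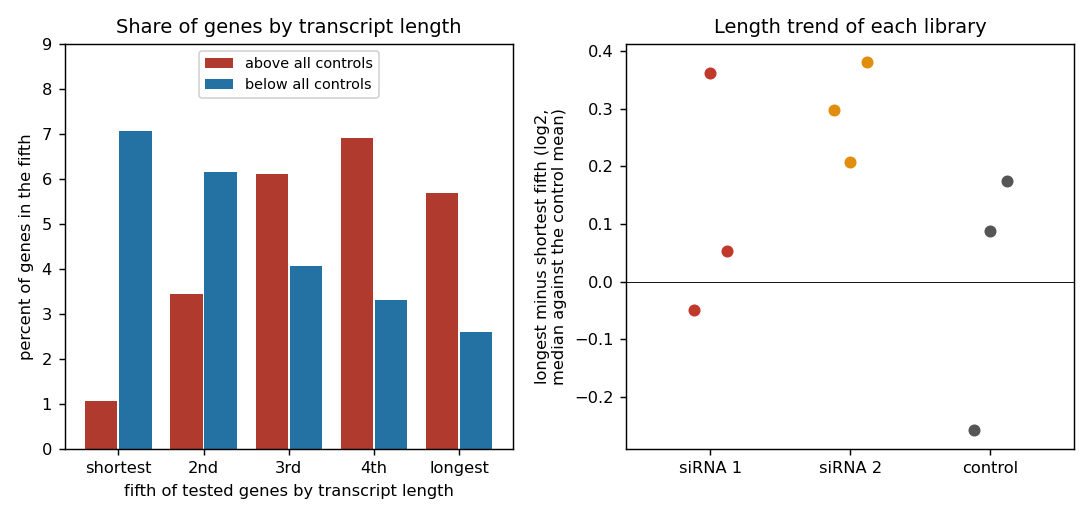
The left panel gives the percent of tested genes above all controls (red) and below them (blue) in each of 5 length classes, and the right panel the median log2 level of the longest minus the shortest class in each library. The share above is 1.06% in the shortest class and 5.68% in the longest, and in the right panel the siRNA 1 libraries overlap the controls.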

How the data were processed

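RNA-seq was read in 9 libraries, 3 per group, all labelled batch 1. Per the labels' protocols, libraries were made from 1250 ng of poly(A)-selected RNA with a kit that keeps strand and 12 PCR cycles, and pairs of 36 bp reads were trimmed with CLC Genomics Workbench 23.02. Per the submitters' processing notes, build GRCm39 and DESeq2 were used. Not given in the sources used here are the role of DESeq2, the annotation release and whether counting used strand. Per the file headers, the authors deposited total read counts, RPKM and TPM per gene and library, and a signal column that is their own scaled CPM. The deposited counts gave all main results, the deposited TPM gave the levels per length, the scaled CPM signal was an alternative, and RPKM was only inspected. The siRNA sequences are not used here.

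CPM was computed from the deposited counts with TMM-scaled library sizes (edgeR 4.0.16 in R 4.3.3), with no pseudocount. Library totals ranged from 9786270 to 13675426 counts and no molecular identifiers are named. Replicates of a group differed beyond counting noise (chi-square per degree of freedom 3.18 to 18.4), so none was a repeat deposit. edgeR's filterByExpr removed 13855 of 25655 genes and left 11800. One quasi-likelihood fit with robust estimation over the 9 libraries, with group as the only term, gave log2 fold changes with standard errors and the test of siRNA 1 against siRNA 2, with Benjamini-Hochberg adjustment over 11800 genes and a threshold of 0.05. The biological coefficient of variation was 8.56%. The fit was tested on simulated data.

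Named genes were Usp40, the 12 with the widest gap in each direction and a mean of at least 2 CPM, up to 4 per list and direction, the 6 with the largest siRNA difference each way, and genes at the edge of the rule. The gap is the ratio of the siRNA and control libraries nearest to each other. Promoter windows on chromosome 18 were left out. Transcript lengths are those of GENCODE vM39. The members, the lists and the named genes were chosen with earlier results of these data known. Alternatives were other scalings, filters and tools, a replicate block and leaving out each library. The length correction and the scaled CPM were added after the data were seen. Tables were handled with Python 3.11.15, pandas 2.3.3 and numpy 2.4.6.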

Additional observations from a re-analysis of the deposited data

Results flagged for a closer look

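Genes on 1 side of all controls whose siRNA 1 and siRNA 2 effects differed by edgeR's quasi-likelihood test (adjusted p under 0.05) are listed with siRNA 1 minus siRNA 2 on the log2 scale. Above the controls and higher with siRNA 2 were Pard3b (-0.50), H2bc4 (-1.96), Lipg (-0.73), Cacng4 (-0.99) and C3 (-0.62), and above and higher with siRNA 1 were Lpcat1 (0.31) and Fth1 (0.38). Below the controls and higher with siRNA 1 were Ero1a (0.70), Akirin1 (0.47), Tmem64 (0.57), Lgr4 (0.35), Cyb5r4 (1.02), Eif5a2 (0.85), Vps54 (0.79), Mocs2 (0.77), Rab8b (0.77), Birc5 (0.56), H2aj (0.43), Ezr (0.42) and Pfn2 (0.54). Below the controls and higher with siRNA 2 were Slc35f6 (-0.61), Ccnd2 (-0.60) and Ube2e3 (-0.46). In 14 of these 23 the call was kept in every alternative run. The other 9, C3, Cacng4, Ezr, Fth1, H2aj, Lgr4, Lpcat1, Pard3b and Ube2e3, lost it when at least 1 siRNA library was left out.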

How the results depend on the processing

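The 547 genes above and 548 below were 569 and 489 with library totals, 559 and 533 with RLE size factors, 577 and 582 with no filter, 542 and 543 at a mean of at least 1 CPM, 633 and 544 after the length correction, and 495 and 627 with the authors' scaled CPM. Asking for a gap of at least 1.1-fold left 143 and 71. Leaving out 1 library gave 588 to 1267 above and 586 to 1382 below, since fewer libraries then have to meet the rule. Of the genes that differed between the siRNAs, 48 were higher with siRNA 1 and 25 with siRNA 2. DESeq2 gave 50 and 28, limma-voom 49 and 25, and the replicate block 47 and 27. Fitted on only the 6 siRNA libraries it was 62 and 40, and after the length correction 66 and 32. Of 110 named genes on 1 side of the controls, 7 were not with library totals, 24 after the length correction and 5 with the authors' scaled CPM. Leaving out 1 library gave 28 to 59 and 11 to 40. The 23 named differences between the siRNAs that passed the test kept their sign in every alternative run. Of the 87 that did not pass, 35, of at most 0.117 in size, changed sign in at least 1. Whether the replicate numbers pair the libraries is not known. Correlations of same-numbered deviations ran from -0.14 to 0.43 and those of other pairs from -0.43 to 0.38. These ranges overlap and cannot settle it, so the block is given only as an alternative. Small counts limit genes near 1 CPM, and overlapping genes and the unknown use of strand limit 187 genes. The cause of the differences between settings was not tested.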
